A study of Mus musculus with 22 samples.

Results

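The peaks described here are those called for C/EBPβ (Cebpb, CCAAT/enhancer binding protein beta) in BV2 cells, an immortalised mouse microglial line, and there were 153379 of them among the 505760 peaks of all antibodies in the series. All peaks of the 3 C/EBPβ lists were taken, 1 list per construct, with no selection on their values. Each peak was placed in 1 of 3 classes by the distance from its centre to the nearest transcript start of the expression table: 1 kb or less, 1 to 20 kb, or over 20 kb. The pCDH list (empty vector) held 35964 peaks, the Nwt list (wild-type fragment) 69522 and the Nmu list (mutant fragment) 47893.

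The series asked how mutant huntingtin, which has a lengthened run of glutamines in Huntington's disease, alters gene expression and myeloid factors in microglia. BV2 cells were transduced with lentivirus made from a plasmid in which a CMV promoter drives the insert. The plasmid was empty (pCDH), or coded for the start of human huntingtin, an N-terminal piece with a run of 15 (Nwt) or 128 glutamines (Nmu), and the cells received no other treatment. The pCDH and Nwt cells are the 2 controls. The 3 C/EBPβ libraries, like those for H3K4me2, PU.1 and C/EBPα, are labelled 24 h, and each construct has 2 RNA libraries, 1 at 24 h and 1 at a second time that the labels give as 48 h and the header of the expression table as 6 h. With 1 C/EBPβ library per construct, no difference between the lists has a replicate check and no p-value is given for one. Intervals on shares are exact (Clopper-Pearson) 95% intervals, which cover counting error only. The labels do not say whether the RNA libraries came from separate cultures.

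C/EBPβ is a leucine-zipper transcription factor that binds DNA as a dimer, with itself or with other members of its family, at a palindrome-like site. In myeloid cells it works beside PU.1, the lineage-determining ETS factor, and is known for its part in the induction of cytokine and acute-phase genes. Most binding sites of such factors in macrophages lie away from promoters, at enhancers marked by H3K4me2, a histone modification found at promoters and enhancers in use or poised for use.

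The sequence under the mm9 peaks was not used here, so promoters of genes with a peak at the start are shown in its place. They come from the RefSeq promoter table (build GRCm38.p6), in which 16666 of the 23953 gene symbols of the expression table were found, and 13766 had 1 start in both tables. The peak's distance from the start was measured on mm9, no coordinate was carried between the builds, and whether both builds' annotations start at the same base was not checked. Each stretch is the 250 bases before the start, 5′ to 3′ on the gene's strand, and capitals mark 8-letter matches to a C/EBP motif (TTGCGCAA, TTGCACAA or the looser TTNNGNAA, both strands). The first 4 genes had a region in all 3 lists between 40 and 181 bp before the start, and are shown because they include inducible C/EBP family targets: Il1b (interleukin-1 beta, chr2:129371140-129371389, minus strand), Lcn2 (the iron-siderophore binder lipocalin 2, chr2:32387740-32387989, minus strand), S100a8 (a calcium-binding protein of neutrophils and activated macrophages, chr3:90668821-90669070, plus strand) and Ctsk (cathepsin K, a lysosomal protease, chr3:95498960-95499209, plus strand). The last 2, Nr4a1 (a nuclear receptor, chr15:101266596-101266845, plus strand) and Pdhb (a subunit of pyruvate dehydrogenase, chr14:8172993-8173242, minus strand), had a region at the start in the Nmu list alone. Control peaks also lay nearby: within 1 kb of the start were 1 (pCDH), 1 (Nwt) and 2 (Nmu) peaks at Nr4a1, and 1, 0 and 2 at Pdhb.
Il1b: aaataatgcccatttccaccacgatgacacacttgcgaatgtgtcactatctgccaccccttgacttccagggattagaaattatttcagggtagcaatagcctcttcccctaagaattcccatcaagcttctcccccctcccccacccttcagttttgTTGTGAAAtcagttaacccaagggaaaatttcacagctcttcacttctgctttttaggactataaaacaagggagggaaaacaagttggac
Lcn2: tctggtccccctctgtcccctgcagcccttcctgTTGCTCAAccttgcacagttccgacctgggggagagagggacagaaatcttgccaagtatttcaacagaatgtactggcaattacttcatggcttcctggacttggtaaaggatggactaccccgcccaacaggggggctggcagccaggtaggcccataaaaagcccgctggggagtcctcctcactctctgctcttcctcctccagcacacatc
S100a8: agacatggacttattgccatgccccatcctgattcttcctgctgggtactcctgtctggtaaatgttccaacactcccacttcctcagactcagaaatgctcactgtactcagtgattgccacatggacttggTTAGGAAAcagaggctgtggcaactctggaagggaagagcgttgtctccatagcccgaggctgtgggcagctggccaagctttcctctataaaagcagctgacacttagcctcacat
Ctsk: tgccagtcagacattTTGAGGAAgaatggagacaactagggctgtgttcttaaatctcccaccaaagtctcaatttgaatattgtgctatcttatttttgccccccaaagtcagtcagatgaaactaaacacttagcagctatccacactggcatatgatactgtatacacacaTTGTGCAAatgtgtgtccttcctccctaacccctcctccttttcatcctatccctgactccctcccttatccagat
Nr4a1: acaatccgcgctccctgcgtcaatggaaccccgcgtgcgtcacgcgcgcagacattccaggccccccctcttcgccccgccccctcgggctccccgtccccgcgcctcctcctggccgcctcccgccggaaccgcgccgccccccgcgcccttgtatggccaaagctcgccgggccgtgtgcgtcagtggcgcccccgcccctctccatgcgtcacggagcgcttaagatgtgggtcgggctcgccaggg
Pdhb: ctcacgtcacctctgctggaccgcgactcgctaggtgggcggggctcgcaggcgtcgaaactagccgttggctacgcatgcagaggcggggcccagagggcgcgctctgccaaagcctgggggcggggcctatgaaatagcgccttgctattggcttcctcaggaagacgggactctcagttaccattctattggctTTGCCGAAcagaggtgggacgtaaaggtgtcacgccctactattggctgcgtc

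The Ctsk promoter held the TTGCACAA motif, on the strand that reads TTGTGCAA, 76 bases before the start. The other capitals there begin 235 bases before it. Il1b and S100a8 had 1 loose match each, 91 and 117 bases before the start, and both had their region centred 118 bp before it. In Lcn2 the loose match began 216 bases before the start, and in Pdhb 53 bases before it. The Nr4a1 stretch held none of these letters. A match is a description of letters and not a measured site.

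Over all genes with 1 start in both tables, the strict palindrome TTGCGCAA differed in frequency with the lists that held the region. It stood in the window from 250 bases before to 50 after the start in 24 of 682 promoters (3.52%) with a region there in all 3 lists, in 0 of 234 with a region in Nmu alone (a count of 0 allows up to 1.28%), and in 36 of all 13766 such genes (0.262%). TTGCACAA stood in 30 of 682 (4.40%), 2 of 234 (0.855%) and 142 of 13766 (1.03%). The loose motif TTNNGNAA, which takes in both strict motifs, stood in 57.0% of promoters with a region in all 3 lists, 28.2% of those with a region in Nmu alone and 38.0% of all 13766. Genes expressed in BV2 with no region within 1 kb held it in 28.1% of 2441 promoters. The 81 promoters with a region in both controls and not in Nmu held TTGCGCAA in 0 (up to 3.70% allowed), TTGCACAA in 2 and the loose motif in 38.3%. Low shares were also found in other sets: TTGCGCAA stood in 2 of 617 promoters with a region in Nwt alone (0.324%) and 2 of 390 with one in Nmu and Nwt (0.513%). With a region in pCDH alone it stood in 0 of 71 (up to 4.23% allowed). This bound and the 3.70% for both controls without Nmu exceed 3.52%, so the zeros there do not show a lower share than in all 3 lists. The loose motif stood in 33.5% (Nwt alone), 19.7% (pCDH alone) and 38.5% (Nmu and Nwt). Over all 32851 promoters of the RefSeq table, whatever their match, the shares were 0.183% for TTGCGCAA, 1.01% for TTGCACAA and 40.7% for the loose motif. The PU.1 motif GAGGAAGT stood in 3.96% of the promoters with a region in all 3 lists, 5.98% of those with a region in Nmu alone and 3.25% of all 13766. For the AP-1 motif TGANTCA the shares were 6.45%, 4.27% and 7.35%. Matches of the PU.1 and AP-1 motifs that overlap a C/EBP match were kept.

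The 3 C/EBPβ libraries differed in quality before any comparison of binding. They had 17.5 (pCDH), 17.7 (Nwt) and 13.6 M (Nmu) total tags, of which 8.09%, 23.0% and 24.3% lay in peaks, per the file headers. The caller removed 33.8% of the putative pCDH peaks, 15.0% of the Nwt peaks and 2.23% of the Nmu peaks for too little enrichment over the input, which is named after another macrophage source. A peak needed at least 8, 7 or 6 tags. The tags per base pair times genome size, a measure of how many distinct positions were sequenced, came to 10.4, 7.99 and 3.30 M, so the Nmu library was the least diverse. These measures move with the construct, and their part in the results below was not tested.

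BV2 identity was checked on marker RNA. Of 19 myeloid genes measured, 17 reached the expression filter, and the summed level of the 19 ran from 1242 to 2907 RPKM over the 6 libraries. Among 22 markers of other cell types, 1 (S100a8) reached it, and their sum lay between 1.05 and 4.78 RPKM. Cx3cr1, a receptor typical of microglia in the brain, was at most 0.074 RPKM. Mouse Htt lay between 2.86 and 3.97 RPKM in every library, which does not check the human fragments.

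The distance classes were alike in the 3 lists. Peaks within 1 kb of a start made up 11.02% of the pCDH list (3965 peaks, interval 10.7 to 11.4%), 11.4% of the Nwt list (7900, 11.1 to 11.6%) and 11.7% of the Nmu list (5596, 11.4 to 12.0%). From 1 to 20 kb lay 40.4%, 40.0% and 40.2%, and over 20 kb 48.5%, 48.7% and 48.1%. The median distance was 18.8, 19.0 and 18.6 kb. The Nmu list had the highest promoter share, but by 0.32 percentage points over Nwt, and this order did not hold in 2 alternatives: among peaks on H3K4me2 of the same construct the shares were 17.3% (pCDH), 19.6% (Nwt) and 16.3% (Nmu), and in the first 35964 peaks of each list they were 11.02%, 10.5% and 10.8%. Close to the start, from 250 bp before to 50 bp after it, lay 4.11%, 4.43% and 4.81% of the peaks. The PU.1 lists had smaller promoter shares, 7.89%, 6.83% and 7.24%, and the H3K4me2 lists larger ones, 21.9%, 22.3% and 20.3%.

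**Figure D1:**
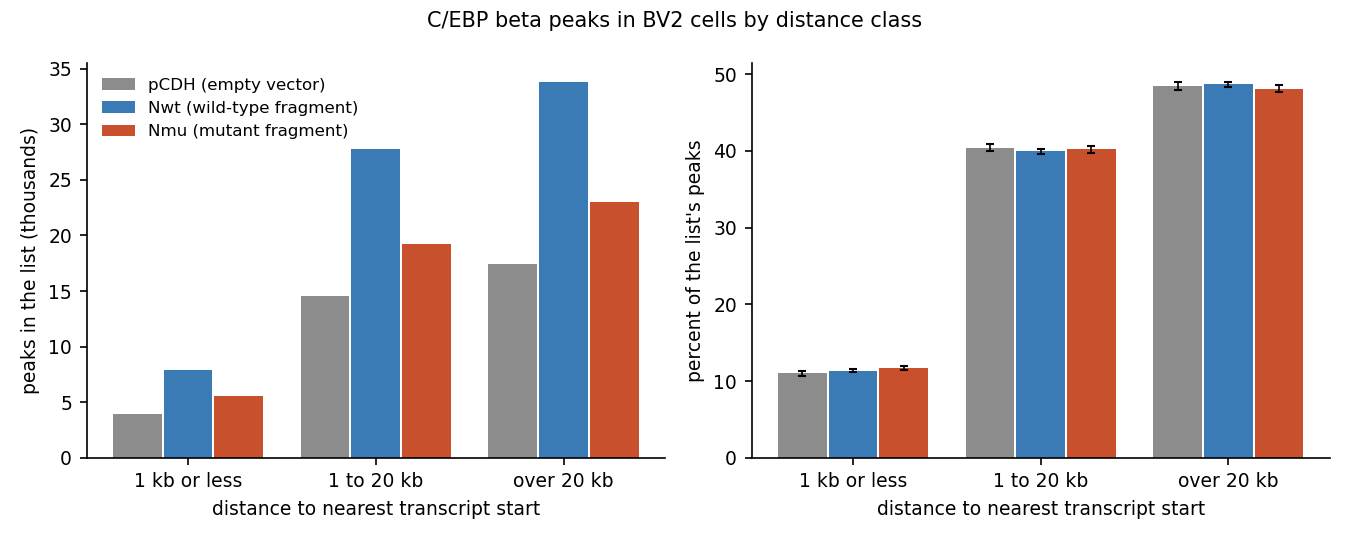
C/EBPβ peaks in units of 1000 (left) and as percent of their list with exact 95% intervals (right), by distance to the nearest transcript start, for the 3 constructs. The numbers differ by list length while the shares nearly coincide, with 11.02 to 11.7% of peaks within 1 kb.

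Where a peak stood in its deposited list went with how widely it was found. Each list was cut into 10 equal parts. In part 1, 99.7% (pCDH), 98.7% (Nwt) and 99.0% (Nmu) of peaks overlapped a peak in both other lists. In part 10 the shares were 39.2%, 3.02% and 21.5%. The headers do not state the order, and the deposited score is 1 for every peak, so what it ranks is unknown. The same holds for every comparison of the first 35964 peaks of each list (lists of equal length). Promoter peaks were more common toward the end of the lists. Within 1 kb of a start lay 10.3% of part 1 and 15.8% of part 10 of the Nmu list, against 10.2% and 12.1% in Nwt and 10.6% and 12.5% in pCDH.

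**Figure D2:**
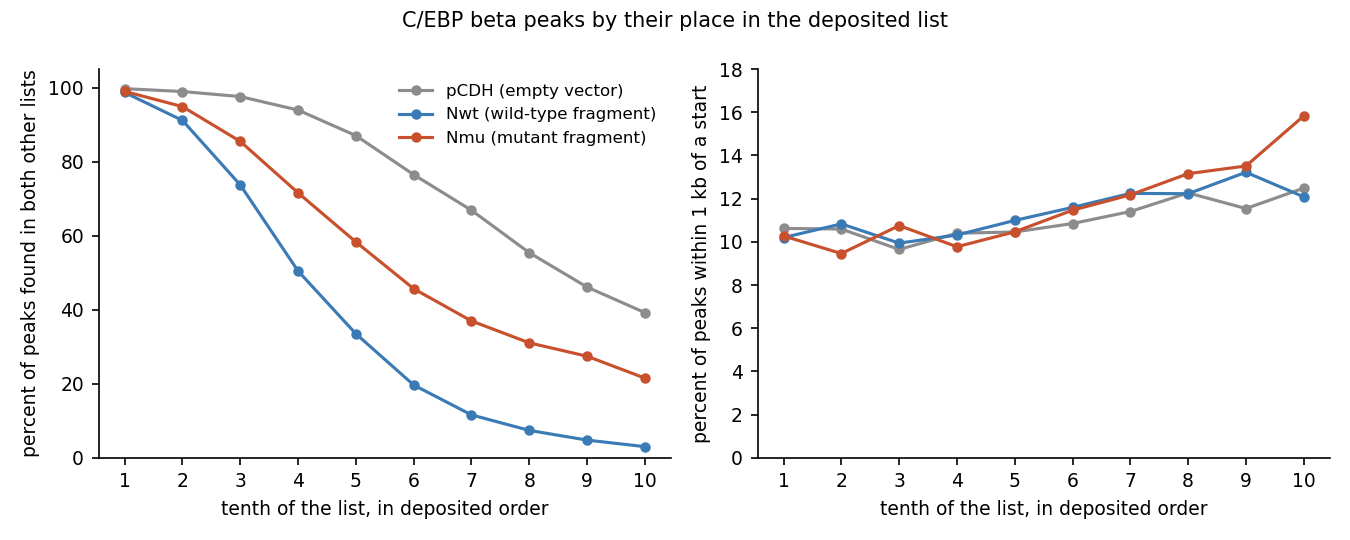
Percent of C/EBPβ peaks found in both other lists (left) and percent within 1 kb of a transcript start (right), by 10 equal parts of each list in deposited order. Nearly all early peaks were shared, 98.7 to 99.7%, and part 10 of the Nmu list had the highest promoter share, 15.8%.

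Peaks of the 3 lists that overlapped by 1 bp or more were merged into 80260 regions. All 3 lists held 27501 of these (34.3%), Nwt alone 24791 (30.9%), Nmu and Nwt 13011 (16.2%), Nmu alone 6494 (8.09%), both controls but not Nmu 4219 (5.26%), pCDH alone 3357 (4.18%) and Nmu and pCDH 887 (1.11%). Of the Nmu peaks, 84.5% overlapped a Nwt peak and 59.1% a pCDH peak, and of the pCDH peaks 88.0% overlapped a Nwt peak and 78.8% a Nmu peak. The shorter lists therefore lay mostly inside the Nwt list. Absence from a list is not a measured loss of binding, since each list was called on its own.

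Regions held by Nmu alone lay near starts most often. Within 1 kb were 15.4% of them (1002 regions, interval 14.6 to 16.3%), against 10.6% of the regions in all 3 lists (10.3 to 11.01%), 11.4% of those in both controls but not Nmu (10.5 to 12.4%), 11.8% of those in Nwt alone (11.4 to 12.3%) and 13.3% of those in pCDH alone (12.2 to 14.5%). Seen from the classes, Nmu alone held 10.6% of the regions within 1 kb, 8.01% of those at 1 to 20 kb and 7.55% of those beyond. With lists of equal length the 3 shares were 13.7%, 11.7% and 11.8%. With peaks matched where their centres lay within 50 bp, Nmu alone held 15.1% of the regions within 1 kb.

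**Figure D3:**
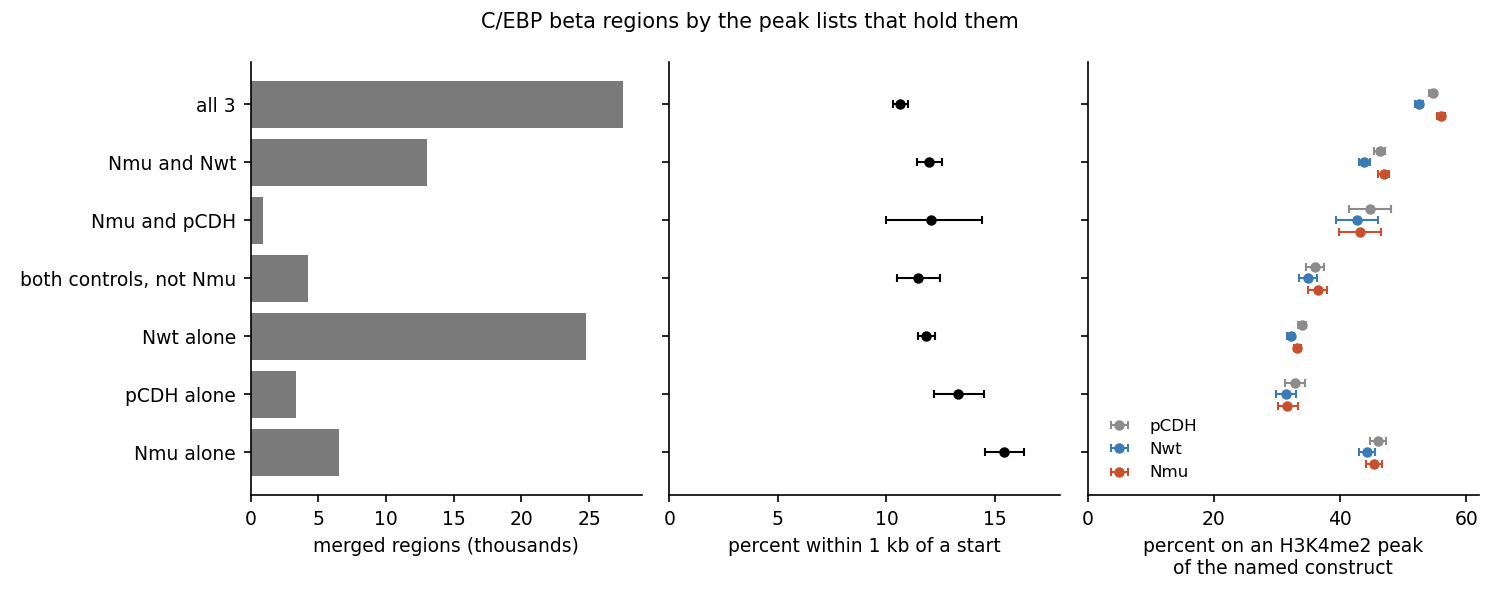
Merged C/EBPβ regions grouped by the lists that hold them, with their number in units of 1000 (left), the percent within 1 kb of a transcript start (middle) and the percent overlapping an H3K4me2 peak of each construct (right), with exact 95% intervals on shares. Nmu-alone regions had the highest promoter share, 15.4%, and were on H3K4me2 about equally often in the 3 constructs, 44.3 to 46.0%.

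H3K4me2 covered most promoter peaks of C/EBPβ and fewer distal ones. Of the peaks within 1 kb of a start, 78.5% (pCDH), 72.7% (Nwt) and 72.2% (Nmu) overlapped an H3K4me2 peak of the same construct. At 1 to 20 kb the shares were 52.1%, 44.2% and 54.5%, and beyond 20 kb 41.7%, 33.5% and 44.2%. Over all classes 49.9%, 42.2% and 51.6% were marked, and in the first 35964 peaks of each list 49.9%, 52.2% and 55.1%. The Nmu list was highest at both distal distances, while at promoters its interval met that of Nwt (71.0 to 73.3% against 71.7 to 73.7%) and lay under that of pCDH. The H3K4me2 lists held 39503 (pCDH), 39445 (Nwt) and 42514 (Nmu) peaks and covered 67.3, 62.8 and 65.0 Mb. The part of their length was not tested.

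PU.1 overlapped 22.0% (pCDH), 16.6% (Nwt) and 22.7% (Nmu) of the C/EBPβ peaks. It did so less often within 1 kb of a start, at 18.8%, 12.0% and 17.0%, than at 1 to 20 kb, at 22.9%, 17.4% and 23.7%. The PU.1 lists held 71846, 53835 and 64744 peaks, so the lowest share went with the shortest PU.1 list, and list length was not tested. Among the first 35964 C/EBPβ peaks of each list PU.1 overlapped 22.0%, 20.6% and 24.2%. C/EBPα, a family member that can pair with C/EBPβ, overlapped 29.8%, 25.8% and 18.1%, and its own lists were short, with 11645, 19732 and 9117 peaks. The lower share in Nmu therefore goes with the shortest C/EBPα list, and the part of list length was not tested. In the first 35964 peaks of each list C/EBPα overlapped 29.8% (pCDH), 46.7% (Nwt) and 23.6% (Nmu).

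**Figure D4:**
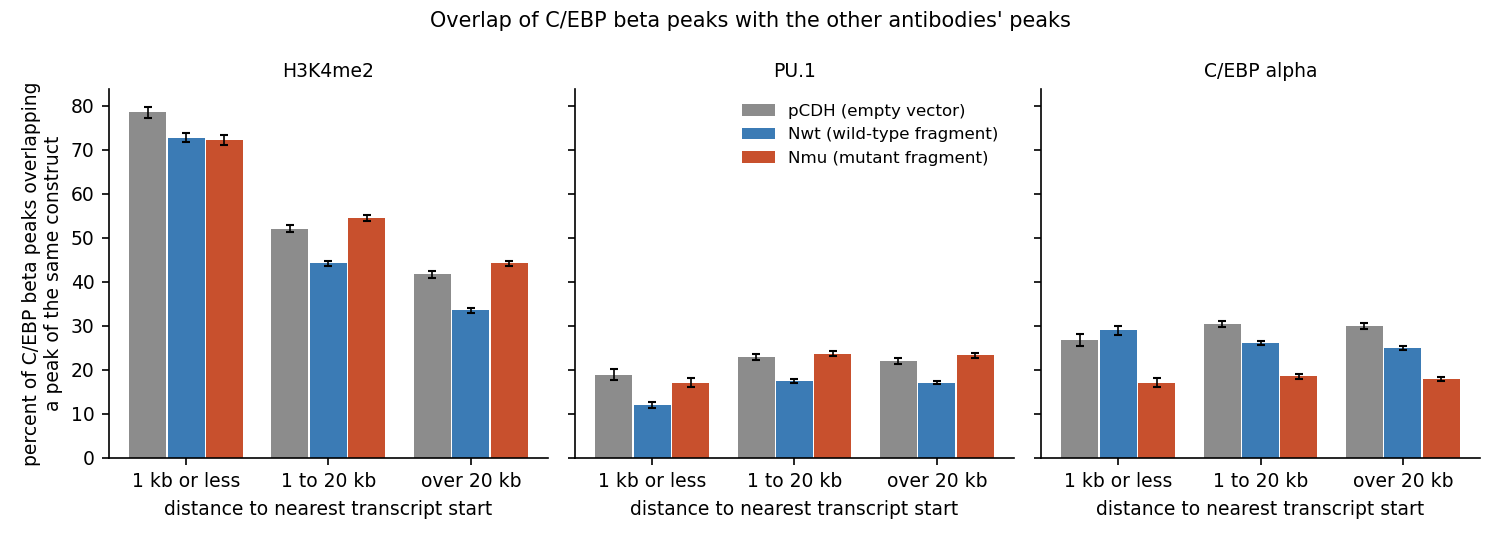
Percent of C/EBPβ peaks that overlap a peak for H3K4me2, PU.1 or C/EBPα of the same construct, by distance class, with exact 95% intervals. H3K4me2 falls with distance from 72.2 to 78.5% within 1 kb to 33.5 to 44.2% beyond 20 kb, and C/EBPα is lowest in Nmu in each class.

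At the regions that Nmu alone held, H3K4me2 was not particular to Nmu cells. It was present at 46.0% of them in the pCDH list, 44.3% in the Nwt list and 45.4% in the Nmu list. H3K4me2 peaks found in Nmu and in neither control lay at 233 of the 6494 Nmu-alone regions (3.59%, interval 3.15 to 4.07%), against 4.21% of all 80260 regions and 5.32% of those in all 3 C/EBPβ lists. PU.1 peaks found in Nmu and in neither control lay at 2.09% of the Nmu-alone regions and at 2.51% of all regions. C/EBPα lay at few Nmu-alone regions, 1.03% in the Nmu list, 1.00% in the pCDH list and 4.23% in the longer Nwt list (8.28% within 1 kb). At the regions in all 3 C/EBPβ lists these shares were 29.6%, 38.4% and 56.3%. Nwt-alone regions were similar in this, at 2.58% in Nwt cells.

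Each peak within 20 kb of a start was given to the gene of that start. This gave at least 1 peak to 9667 of 23953 genes with pCDH, 13475 with Nwt and 11225 with Nmu. Genes with a peak had 1.91, 2.65 and 2.21 peaks on average. Of 14125 genes with a peak in any list, 8806 had one in all 3, 390 in Nmu alone and 601 in both controls but not Nmu. More peaks in Nmu than in either control were counted at 1184 genes, and fewer at 1396, but the gain was 2 or more at 133 genes and the loss 2 or more at 135. With lists of equal length the counts were 1804 more and 1401 fewer.

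Some genes carried many peaks in every list. Sept9, a cytoskeletal GTPase, had 8 (pCDH), 21 (Nwt) and 11 (Nmu), and St6gal1, a sialyltransferase, 12, 18 and 14. Fam134b, an endoplasmic reticulum autophagy receptor, had 13, 15 and 15. The largest gain was at Ubash3b, a phosphatase that dampens receptor signalling, with 3, 3 and 7 peaks, 4 of them in regions held by Nmu alone. Ubash3b RNA read 4.10 and 4.91 RPKM with pCDH (24 h and the second time), 4.61 and 5.01 with Nwt, and 4.31 and 6.77 with Nmu, so the Nmu value at 24 h lay among the controls.

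Other large gains stood at genes whose RNA was not called. Nt5c2, a cytosolic nucleotidase, had 3, 8 and 11 peaks, and its RPKM was 2.14 and 3.82 with Nmu against 3.20 to 3.71 in the controls. Ctsk had 4, 5 and 8 peaks and read 1243 and 1418 RPKM with Nmu against 886 to 991 in the controls, a log2 difference of 0.51 (SE 0.15, limma adjusted p = 0.177). At Ctsk, 1 Nmu-alone region at chr3:95297718-95297862 (mm9) lay beside a region of both controls that Nmu lacked, without overlap. 2210414B05Rik had 1, 2 and 5 peaks, and its RNA was listed at 0 in all 6 libraries.

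The largest losses were at Lpin1 (a phosphatidate phosphatase of lipid synthesis), Psmb4 (a proteasome subunit) and Grhl1 (an epithelial transcription factor). Lpin1 had 7, 7 and 3 peaks, and its RNA was lower in both Nmu libraries, at 1.56 and 4.70 RPKM against 5.50 to 8.66 in the controls, with a log2 difference of -1.02 (SE 0.38, limma adjusted p = 0.242). Psmb4 had 5, 5 and 1 peaks while its RNA was 85.5 and 119 RPKM with Nmu and 70.0 to 112 in the controls. Grhl1 had 4, 4 and 0 peaks at 0 to 0.118 RPKM. Psmb4 and Grhl1 each had 2 regions in both controls and not in Nmu, 2 in pCDH alone and 2 in Nwt alone. Here too single lists placed peaks side by side: at the Lpin1 start a pCDH peak and a Nwt peak lay next to each other without overlap. The same was seen at the Psmb4 start.

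Gene expression was compared between Nmu and both controls to ask whether genes near these peaks differed. In limma's test of 10350 genes, 30 were higher in Nmu (0.29%) and 6 lower (0.058%) at an adjusted p of 0.05, and between Nwt and pCDH 0 were called (0%, with 66 at an unadjusted p under 0.05). By a 2-fold rule, where both Nmu libraries differed at least 2-fold from both controls of the same time (4 of 4 differences on the log2(RPKM + 1) scale), 85 genes were higher (0.821%) and 54 lower (0.522%). The fit has 2 residual degrees of freedom, and with no filter on low values it called 0 genes each way. All constructs share its estimate of the spread, to which the Nmu libraries contribute. The 0 calls between Nwt and pCDH are therefore no measure of how alike the controls are. At a pseudocount of 5, Bnip3, Ccng2, Gpd1, Irak3, Itgav, Nr4a1, Pilra and Pilrb2 passed no longer. Leaving out any 1 of the 6 libraries gave more calls, 58 to 1991 higher and 29 to 1803 lower. Without a term for time, Il1a, Nfkbia, Ccl4, Pilra, Nr4a1, Ccng2 and Itgav passed no longer (limma adjusted p 0.0530 to 0.121). Each construct has 1 RNA library per time. With the time term, the p-values therefore measure how far construct differences disagree between the 2 times, not a spread of replicates at 1 time. The scale of log2(RPKM + 1) understates the fold of low genes. In bulk RNA, fewer cells of a type and less RNA per cell cannot be told apart.

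Genes next to Nmu-alone regions had RNA differences centred slightly lower than those of all genes. The 1646 tested genes with such a region within 20 kb and no controls-only region had a median log2 difference of -0.036, and the 866 with a controls-only region and no Nmu-alone region one of -0.007, against -0.003 over all 10350. Above 0 were 45.4%, 49.3% and 49.5% of them. A lower median was not particular to Nmu-alone regions. Genes with 3 or more regions in Nwt and not in pCDH, whatever their other regions, had -0.058, with 43.7% above 0. The median was -0.012 with 2 or more Nmu-alone regions and no controls-only region. Where a Nmu-alone region and no controls-only region lay within 1 kb it was -0.0025. By time, the median beside Nmu-alone regions was -0.031 (24 h) and -0.019 (second time), against 0.048 and -0.026 over all genes, so it lay below that of all genes at 24 h and slightly above it at the second time. By the 2-fold rule 16 of the 1646 were higher (0.972%) and 14 lower (0.851%), and 6 of the 866 were higher (0.693%) and 6 lower (0.693%). By limma 5 and 1 of the first group were called higher and lower (0.304% and 0.061%), and 3 and 1 of the second (0.346% and 0.115%). Over all genes tested limma called 0.29% higher and 0.058% lower, so the first group lay near the background and the second rests on few genes. Where the Nmu-alone region lay within 1 kb, 3 of 761 genes were higher (0.394%) and 7 lower (0.920%). The background for the 2-fold rule is 0.821% higher and 0.522% lower, so the shares higher lay on both sides of it, and the shares lower lay above it, with few genes behind each.

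Genes that differed in RNA had more C/EBPβ peaks in every list, whichever way the RNA went. A Nmu peak within 20 kb was found at 73 of the 85 genes higher by the 2-fold rule (85.9%) and 49 of the 54 lower (90.7%), against 68.1% of all genes tested. The same held for the pCDH list, at 78.8% and 83.3% against 58.4%, and for the Nwt list, at 91.8% and 90.7% against 79.0%. A region of Nmu alone stood at 25.9% of the higher and 31.5% of the lower genes, against 19.8% of all genes tested. For regions of both controls without Nmu the shares were 14.1%, 16.7% and 12.3%. Mean peaks per gene in pCDH, Nwt and Nmu were 2.24, 3.58 and 3.06 for the higher genes, 2.02, 3.61 and 2.89 for the lower ones and 1.20, 2.32 and 1.64 for all genes tested. Counted by the number of Nmu peaks, 0.364% of 3297 genes without a peak were 2-fold higher and 0.152% lower. Of the 764 genes with 5 to 9 peaks, 3.14% were higher and 0.916% lower. Among the 56 genes with 10 or more, 1 was higher and 3 were lower. Genes with many peaks also had higher RNA levels, with a median of 6.58 RPKM (pCDH, 24 h) at 5 to 9 peaks and 3.83 RPKM at none, and the part of this level was not tested.

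Among inflammatory and acute-phase genes with known C/EBP sites, 19 of 28 passed the filter. By limma 5 rose and 0 fell (0.29% and 0.058% over all genes tested). By the 2-fold rule 9 rose and 1 fell (0.821% and 0.522% over all genes tested). The median log2 difference was 1.67, against -0.003 over all genes tested. Peaks stood at 25 of the 28 genes with pCDH, 28 with Nwt and 27 with Nmu (89.3%, 100% and 96.4%, against 58.4%, 79.0% and 68.1% of all genes tested). A region of Nmu alone stood at 9 of the 28, where 19.8% of all genes tested had one. The list was drawn up with earlier results of these data known, so it is no independent evidence of a direction. The 5 that rose were Il1a, Il1b, Ccl4, Marco and Tnf, the last named after its values were seen.

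Marco, a scavenger receptor of phagocytes, read 0.640 and 1.05 RPKM with pCDH, 0.966 and 2.29 with Nwt, and 97.0 and 59.0 with Nmu, so that its groups did not overlap. Its log2 difference was 5.15 (SE 0.32, limma adjusted p = 0.0246). Marco had 6 (pCDH), 5 (Nwt) and 5 (Nmu) C/EBPβ peaks, and 5 of its 6 regions, among them one 169 bp after the start (chr1:122401417-122401568, mm9), were in all 3 lists. The sixth was in pCDH alone.

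Il1a, interleukin-1 alpha, had 8, 9 and 9 peaks. Its RNA went from 4.49 and 1.78 RPKM with pCDH and 5.60 and 2.09 with Nwt to 66.4 and 34.3 with Nmu, a log2 difference of 3.54 (SE 0.14, limma adjusted p = 0.0117). Of its 10 regions, 7 were in all 3 lists and none in Nmu alone. Il1b, whose promoter is printed above, had 4, 8 and 5 peaks, with 1 region of Nmu alone and 1 of both controls without Nmu upstream (offsets of -9.12 and -9.75 kb). Il1b RNA was 1.50 and 1.90 (pCDH), 1.73 and 1.38 (Nwt) and 9.73 and 10.1 RPKM (Nmu), and its log2 difference was 2.06 (SE 0.16, limma adjusted p = 0.0291).

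Lcn2 had 2 peaks in each list, both regions shared by all 3, and H3K4me2 lay over them in the Nmu list and in neither control list. Its RNA was at most 0.180 RPKM in the controls and 219 and 1.98 RPKM in Nmu. With so large a gap between the Nmu libraries its log2 difference of 4.52 (SE 1.40) had a limma adjusted p of 0.191. Ccl4, a chemokine, had 3, 4 and 3 peaks with 1 region of Nmu alone and 1 of both controls only, and rose from 6.45 to 13.6 RPKM in the controls to 58.8 and 59.7 in Nmu (log2 difference 2.64, SE 0.23, limma adjusted p = 0.0433). Arg1, arginase 1, went the other way, from 20.3 to 234 RPKM in the controls to 1.34 and 4.88 in Nmu, with 0, 1 and 1 peaks (log2 difference -4.21, SE 1.05, limma adjusted p = 0.147).

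Feedback genes of NF-kB, the inducible inflammatory factor that often acts at the same genes as C/EBPβ, had 13 of 13 members tested. By limma 3 rose and 0 fell (0.29% and 0.058% over all genes), by the 2-fold rule 6 rose and 0 fell (0.821% and 0.522% over all genes), and the median log2 difference was 0.97 against -0.003. Peaks stood at 12, 13 and 12 of the 13 genes (92.3%, 100% and 92.3%, against 58.4%, 79.0% and 68.1% of all genes tested). Nfkbia, the inhibitor IκBα, had 4, 5 and 4 peaks, and its 4 regions in Nmu were those shared by all 3 lists. It read 2.00 and 3.18 (pCDH), 1.93 and 3.37 (Nwt) and 14.1 and 21.3 RPKM (Nmu), a log2 difference of 2.36 (SE 0.14, limma adjusted p = 0.0215). Tnip1, a ubiquitin-binding inhibitor, with 5, 7 and 6 peaks, and Irak3, a kinase-like brake on Toll-like receptors, with 3, 5 and 5, rose by log2 differences of 2.08 (SE 0.14, limma adjusted p = 0.0274) and 2.07 (SE 0.18, limma adjusted p = 0.0417). The call of Irak3 was lost at a pseudocount of 5.

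The factor's own family changed less clearly. Of 20 C/EBP and other leucine-zipper genes 18 were tested, none was called by limma, and 1 rose by the 2-fold rule. Over all genes tested limma called 0.29% higher and 0.058% lower, and the 2-fold rule 0.821% higher. All 20 genes of the list had a peak in every list of peaks. Of all genes tested, 58.4% (pCDH), 79.0% (Nwt) and 68.1% (Nmu) had a peak. Cebpb read 51.6 and 37.1 RPKM with pCDH, 52.4 and 32.9 with Nwt, and 149 and 52.4 with Nmu. Within each time Nmu was higher than both controls (4 of 4 differences), and the log2 difference was 1.04 (SE 0.25, limma adjusted p = 0.145). Cebpb had 2, 4 and 2 peaks, both Nmu regions being shared by all lists. Cebpd, which rose by the 2-fold rule, went from 0.505 to 0.734 RPKM in the controls to 10.4 and 4.90 (log2 difference 2.32, SE 0.28, limma adjusted p = 0.0686), with 1, 3 and 3 peaks. Cebpa read 2.68 and 4.13 RPKM with Nmu against 5.22 to 5.88 in the controls and had 3, 6 and 6 peaks.

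Myeloid lineage genes had peaks at 18, 19 and 18 of 19 genes (94.7%, 100% and 94.7%, against 58.4%, 79.0% and 68.1% of all genes tested). None of 17 tested was called by limma or by the 2-fold rule, while the median log2 difference was 0.82. Over all genes tested limma called 0.29% higher and 0.058% lower, the 2-fold rule 0.821% and 0.522%, and the median was -0.003. Spi1, which encodes PU.1, had 4, 5 and 5 peaks and read 25.8 to 30.3 RPKM in the controls and 47.8 and 70.2 in Nmu (log2 difference 1.03, SE 0.16, limma adjusted p = 0.0948). Housekeeping genes had a median of 0.10, and none of 8 was called. For C/EBP targets of fat and liver 3 of 12 passed the filter, with a median of -1.12 and 1 lower by the 2-fold rule. Pparg, the fat and macrophage nuclear receptor, had 5, 12 and 12 peaks and read 0.470 to 2.97 RPKM in the controls and 0.079 and 0.201 in Nmu (log2 difference -1.12, SE 0.35, limma adjusted p = 0.195). The gene called lower was Fabp4, a fatty acid carrier of fat and macrophages, at 30.2 to 91.5 RPKM in the controls and 6.88 and 12.4 in Nmu. Its single region lay 74 bp before the start and was in Nmu alone (chr3:10208578-10208722, mm9), with H3K4me2 there in the Nwt list alone. Peaks stood at 7, 10 and 10 of the 22 marker genes of other cell types (31.8%, 45.5% and 45.5%). Of all 23953 genes, expressed or not, 40.4%, 56.3% and 46.9% had one.

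At single genes, RNA that rose stood beside more, equal or fewer peaks. Slc11a2, the divalent metal transporter, had 2, 4 and 6 peaks, with 3 regions of Nmu alone between 1.18 and 6.32 kb after the start, and rose from 3.83 to 4.30 RPKM in the controls to 24.8 and 17.7 in Nmu (log2 difference 2.11, SE 0.16, limma adjusted p = 0.0291). Clec4n, the lectin receptor dectin-2, had 1, 1 and 0 peaks, and rose from 0.237 to 0.556 RPKM to 7.89 and 10.1 (log2 difference 2.88, SE 0.15, limma adjusted p = 0.0173). Ebi3, a cytokine subunit, had 0, 1 and 0 peaks and rose from at most 0.457 RPKM to 14.1 and 9.82 (log2 difference 3.24, SE 0.16, limma adjusted p = 0.0161). Pilra, a paired immunoglobulin-like receptor, rose with 7 peaks in each list, and its neighbours Pilrb1 and Pilrb2 with 0, 0 and 1 and 3, 7 and 7. Reads may be shared among these related genes, which was not tested.

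On the lower side, Bnip3, a mitochondrial autophagy receptor, had 2, 2 and 1 peaks. The region that Nmu lacked lay 456 bp before the start (chr7:146101566-146101725, mm9). Its RNA fell from 34.6 to 66.5 RPKM in the controls to 5.17 and 4.78 (log2 difference -3.002, SE 0.22, limma adjusted p = 0.0281). Nr4a1, shown above, had 3, 7 and 4 peaks, with a Nmu-alone region 26 bp before the start and a controls-only region 3.97 kb before it, and fell from 2.28 to 3.96 RPKM to 0.236 and 0.678 (log2 difference -1.50, SE 0.14, limma adjusted p = 0.0456). Pdhb had 3, 3 and 6 peaks and read 25.5 and 24.0 RPKM in Nmu against 26.1 to 32.0 in the controls. A gain or loss of a peak was thus seen beside RNA that rose, fell or differed little.

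**Figure D5:**
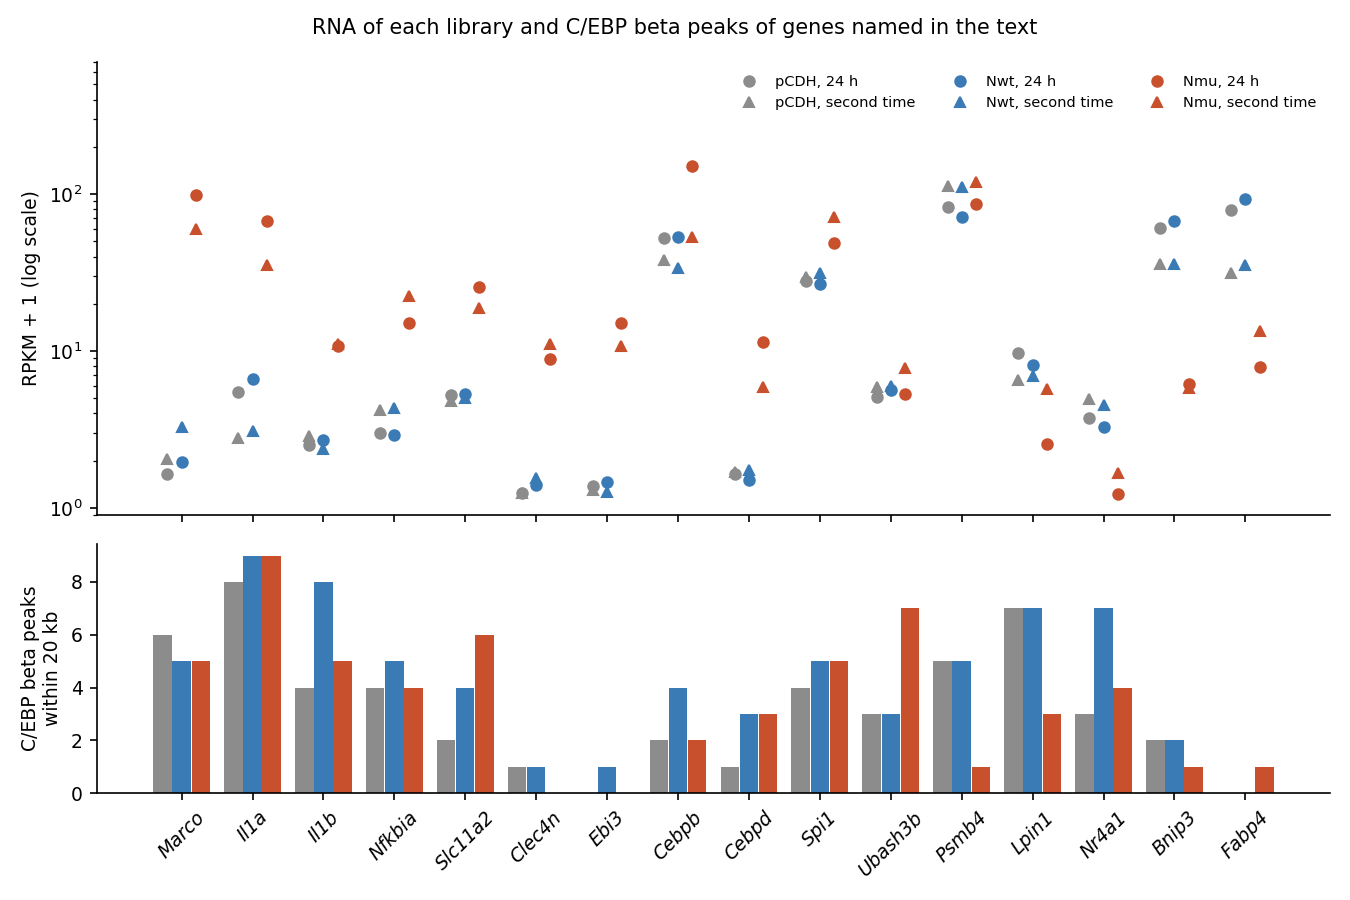
RPKM + 1 of each BV2 RNA library on a log axis (top; circles 24 h, triangles the second time) and number of C/EBPβ peaks within 20 kb in each list (bottom) for genes named in the text. Marco and Il1a rose in Nmu with 5 and 9 peaks there against 5 or 6 and 8 or 9 in the controls. Ubash3b, Psmb4 and Lpin1 were among the largest peak changes. RNA of Ubash3b and Psmb4 was near the controls, and that of Lpin1 was lower in both Nmu libraries.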

How the data were processed

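C/EBPβ, C/EBPα, PU.1 and H3K4me2 ChIP-seq and polyA RNA-seq of BV2 cells were used. Per the submitters' processing notes, Bowtie, STAR 2.0.3e, HOMER and edgeR were among the tools. Peaks were called by HOMER per library, with no pooling stated, at 4-fold over input and local signal, per the file headers. Their deposited score is 1 throughout, so no peak heights were used. The deposited expression table holds RPKM per RefSeq transcript (31641 transcripts), made by the authors. RPKM steps imply 10.8 to 14.1 M reads per library (99.9 to 100.0% of checked values whole within 0.1 reads).

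Distances were taken from peak centres to transcript starts, and overlap means 1 bp or more. One transcript per symbol gave 23953 genes. Genes at RPKM 1 or more in 2 of 6 libraries were tested with limma 3.58.1 (R 4.3.3) on log2(RPKM + 1), with terms for construct and time, Benjamini-Hochberg adjusted. The labels give the time shared by same-numbered libraries. Deviations from construct means correlated at 0.723 between pCDH and Nwt, 0.215 between pCDH and Nmu, and 0.251 between Nwt and Nmu. Counts of peaks and shares used python 3.11.15, pandas 2.3.3 and scipy 1.17.1. The limma script was tested on simulated data.

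Named genes were Cebpa, Cebpb, Cebpd, Spi1 and Htt, the 8 with most peaks, the 8 largest gains and losses of peaks, up to 10 limma calls each way, the 6 largest 2-fold changes each way beside Nmu-alone or controls-only regions, and 4 per gene list. Peaks, lists and genes were chosen with earlier results of these data known. Alternatives covered class limits, overlap rules, list length, pseudocount, filter, normalization, the time term and left-out libraries. RNA from other cells was not compared here, but it entered the mean RPKM over all 10 libraries of the expression table. The transcript with the highest such mean stood for its symbol, and this mean also named genes that share a start.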

Additional observations from a re-analysis of the deposited data

Results flagged for a closer look

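For 5 named genes the difference between Nmu and both controls had opposite signs at the 2 times. None of these differences between times was tested, since each construct has 1 RNA library per time. Values are mean log2(RPKM + 1) differences at 24 h and then at the second time. Bcdin3d, an RNA methyltransferase that lost C/EBPβ peaks in Nmu, differed by 1.09 and -0.19. Fam134b, with 15 peaks in Nmu, differed by 0.20 and -0.09. Nt5c2, with 11 peaks in Nmu, differed by -0.42 and 0.11. S100a8, whose promoter region was in all 3 lists, differed by -0.72 and 0.78. Gapdh, a housekeeping enzyme with many pseudogenes that can share its reads, differed by -1.11 and 0.58.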

How the results depend on the processing

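Shares of peaks within 1 kb (pCDH, Nwt, Nmu) were 11.5, 11.8 and 12.1% from the peak's edge, 10.5, 10.9 and 11.1% with 1 transcript per symbol, 9.34, 9.57 and 9.89% over starts of expressed genes, 15.5, 15.9 and 16.2% with limits of 2 and 50 kb, 17.3, 19.6 and 16.3% on H3K4me2, and 11.02, 10.5 and 10.8% at equal list length, an alternative chosen after seeing the data. Nmu alone held 15.1% of promoter regions with centres within 50 bp and 13.7% at equal length, where both controls without Nmu held 6.52%. Nmu peaks on H3K4me2 were 49.5% with the centre inside, 53.6% widened by 100 bp and 55.1% at equal length. For PU.1 these were 16.1, 26.4 and 24.2%, and for C/EBPα 17.1% (centre inside) and 23.6% (equal length). Genes with more peaks in Nmu numbered 1804 at equal length.

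Calls by limma higher and lower were 0 and 0 without a filter, 62 and 30 over transcripts of 200 bases or more, and 322 and 351 with the controls as 1 group. Lower calls were 25 at pseudocount 0.1, 0 at pseudocount 5 and 1 after quantile normalization. With 1 library left out, 58 to 1991 were higher and 29 to 1803 lower, the lone library of a construct being assumed to vary like the others. The 2-fold rule gave 40 higher and 7 lower at pseudocount 5, and 135 lower at pseudocount 0.1. The median of genes beside Nmu-alone regions was -0.024 at pseudocount 5, -0.012 over every gene within 20 kb, -0.019 on H3K4me2 and -0.045 to -0.020 with 1 library left out. Beside controls-only regions it was 0.0014 over every gene and -0.027 to 0.0078 with 1 library left out. Gapdh reversed to 0.58 without the Nmu library at 24 h (-1.11 without the later one), and S100a8 to -0.72 without the later one (0.78 without that at 24 h). The cause of these changes was not tested.

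Without the replicate block for time, 21 genes were higher and 2 lower, the median beside Nmu-alone regions was -0.036, and 7 named calls were lost: Ccl4, Ccng2, Il1a, Itgav, Nfkbia, Nr4a1 and Pilra. A stricter peak threshold was not run because the score is 1 throughout.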
